A study of Sus scrofa with 11 samples.

Results

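Resident macrophages are the long-lived phagocytes of the heart wall. They clear debris and dying cells, tag material for uptake with complement component C1q, and depend on signals through the receptor CSF1R. Many of them carry scavenger and lectin receptors that bind sugars, lipids and microbial surfaces. The 10 genes described here stand for that programme: C1QA, C1QB and C1QC, which encode the chains of C1q; CSF1R and the signalling adaptor TYROBP; the receptors MRC1, MARCO and CD209; the transglutaminase F13A1; and the lectin LGALS9. They were found as the probe sets that carried one of these symbols, and no other, in the platform annotation. This gave 11 probe sets (2 for C1QB and 1 for each other gene) of 27558 on the array.

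Tissue came from the ischemic zone of the left ventricle of intact male Yorkshire pigs. All animals, the controls included, had an ameroid constrictor on the left circumflex coronary artery, a device whose core swells and gradually narrows the artery. ND pigs ate a normal diet and HFD pigs a high fat diet for 12 weeks, and each diet was followed by injection of vehicle into the heart muscle (the groups ND and HFD) or of extracellular vesicles (EV; the groups ND+EV and HFD+EV), membrane-bound particles that cells release. Heart tissue was taken 5 weeks after the injection. The sources used here give neither the cells that released the vesicles nor the age of the pigs. There were 3 ND, 3 ND+EV, 2 HFD and 3 HFD+EV arrays, titled as biological replicates. The labels name no animals, so p-values measure only the spread between these samples.

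Values are the authors' normalized log2 signal, in which 1 unit is a 2-fold step, and differences are log2 differences between group means with the standard error (SE) of limma. The threshold was an adjusted p of 0.05 over all 20668 probe sets tested, and all 10 genes were among them. Signals of different probe sets are not set against each other, because each probe set binds with its own strength. Arrays of whole tissue cannot tell fewer macrophages from less RNA in each macrophage.

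Array medians were 4.36 to 4.48. ND replicates 1 and 3 stood apart, with mean correlations to the other arrays of 0.946 and 0.952 against 0.965 to 0.972 for the rest. Cardiac muscle markers were strong on every array (ACTC1, cardiac actin, 13.12 to 13.64; MYH7, a cardiac myosin, 12.07 to 12.70). Of 18 further resident macrophage markers, 8 could be tested, among them the endocytic receptor STAB1 (7.09 to 7.57), the folate receptor FOLR2 (4.82 to 5.70) and the complement receptor VSIG4 (3.93 to 4.44). The defining markers CD163, LYVE1 and CD68 were on the lists read here but were not among the genes that could be tested. The resident identity of the cells that gave the signal therefore rests on few markers, and several of the 10 genes are also used by other cells.

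Of the 10 genes, 0 passed the threshold in any of the 5 comparisons made. Among all probe sets tested, 0.735% passed in HFD against ND (152 probe sets, 106 higher and 46 lower) and 0% in each of the other 4 comparisons. The count of 152 in HFD against ND depended on single arrays: leaving out ND replicate 1 gave 1, ND replicate 2 gave 1356, ND replicate 3 gave 12, HFD replicate 1 gave 7 and HFD+EV replicate 1 gave 722, and leaving out any one of the other 6 gave 0. It depended on the normalization too, with 0 after cyclic loess and 0 after quantile normalization. Before adjustment, 2 genes had a p under 0.05 in ND+EV against ND (C1QB and MRC1; 8.51% of all probe sets), 2 in HFD+EV against HFD (CD209 and LGALS9; 5.54%), 3 for the difference of the EV effects (MARCO, CD209 and LGALS9; 8.42%), 1 in HFD against ND (MARCO; 24%) and 1 in HFD+EV against ND+EV (LGALS9; 7.36%). The sizes below are therefore given with their errors.

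**Figure D1:**
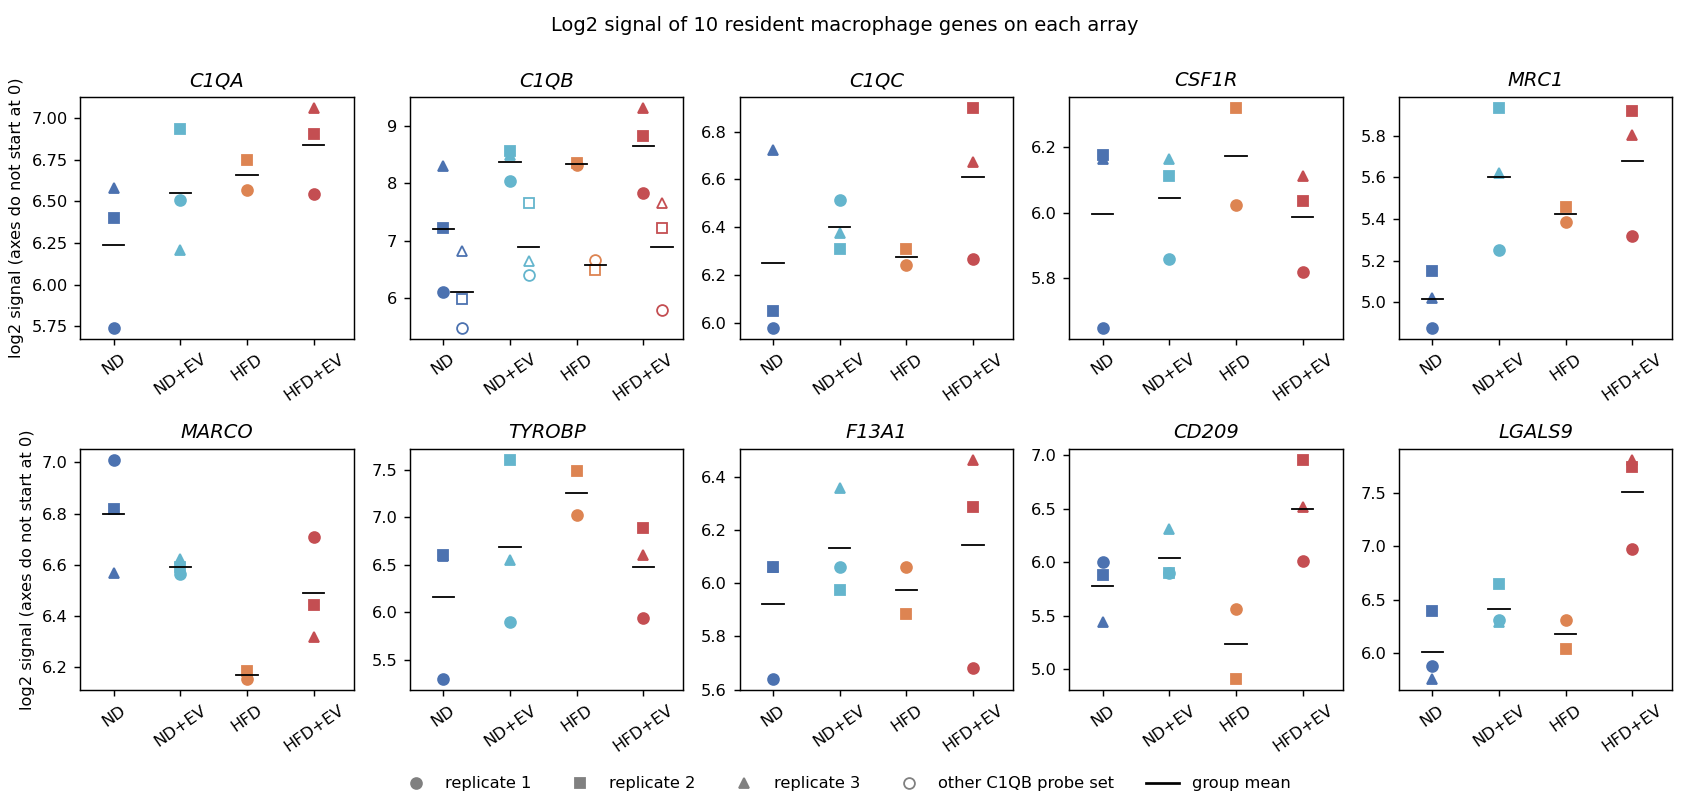
Log2 signal (vertical axes, each on its own scale and not from 0) of the 10 genes on the 11 arrays, by group; marker shapes show the replicate, bars the group mean, and open markers the other C1QB probe set. LGALS9 lay at 6.97 to 7.81 on the 3 HFD+EV arrays and at most at 6.65 on the other 8, and MARCO was lowest on the 2 HFD arrays, at 6.15 and 6.18.

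C1q is a bundle of 3 kinds of chain, each from its own gene, that binds immune complexes and dying cells and starts the classical complement pathway. The 3 genes lie next to each other in the pig genome, in the order C1QA, C1QC, C1QB (RefSeq, Sscrofa11.1). C1QB signal was 6.11, 7.21 and 8.30 on ND replicates 1 to 3, 8.03, 8.56 and 8.50 on those of ND+EV, 8.32 and 8.35 on those of HFD, and 7.83, 8.82 and 9.31 on those of HFD+EV. ND spread over more than 2 log2 units, and its highest array lay within the range of ND+EV. The mean was 7.21 ± 1.09 (SD, n = 3) in ND, 8.36 ± 0.29 (n = 3) in ND+EV, 8.33 ± 0.02 (n = 2) in HFD and 8.65 ± 0.75 (n = 3) in HFD+EV. The 3 upper groups differed by less than the spread within HFD+EV, and ND was the lowest.

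C1QB in ND+EV exceeded ND by 1.15 ± 0.49 (SE), a fold of 2.23, with an adjusted p of 0.575 by limma. The difference was 0.61 without ND replicate 1 and 1.70 without ND replicate 3. HFD exceeded ND by 1.12 ± 0.55 (adjusted p = 0.239), and by 0.58 without ND replicate 1 and 1.67 without ND replicate 3 (adjusted p = 0.504 and 0.0885). In HFD+EV against HFD the C1QB difference was 0.32 ± 0.55, and without HFD+EV replicate 3 it was -0.0061.

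The other C1QB probe set read 5.49, 5.99 and 6.82 in ND, 6.39, 7.65 and 6.64 in ND+EV, 6.66 and 6.49 in HFD, and 5.79, 7.22 and 7.66 in HFD+EV. It shared the low ND replicate 1 and the high HFD+EV replicate 3, and HFD+EV overlapped every other group. Its differences were 0.80 ± 0.49 in ND+EV against ND and 0.47 ± 0.55 in HFD against ND, smaller than those of the main probe set. In HFD+EV against ND+EV the probe sets differed in sign, at 0.29 and -0.0055.

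C1QA signal was 5.74, 6.40 and 6.58 in ND, 6.51, 6.94 and 6.21 in ND+EV, 6.57 and 6.75 in HFD, and 6.55, 6.90 and 7.06 in HFD+EV. From low to high the group means were ND (6.24 ± 0.44, SD), ND+EV (6.55 ± 0.37), HFD (6.66 ± 0.13) and HFD+EV (6.84 ± 0.26), with neighbours closer together than the larger of their SDs. ND+EV exceeded ND by 0.31 ± 0.24 (adjusted p = 0.724), or by 0.062 without ND replicate 1. HFD exceeded ND by 0.42 ± 0.27 (adjusted p = 0.373), or by 0.17 without that array.

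C1QC signal was 5.98, 6.05 and 6.72 in ND, 6.51, 6.31 and 6.38 in ND+EV, 6.24 and 6.31 in HFD, and 6.27, 6.90 and 6.67 in HFD+EV. The ND arrays enclosed both HFD arrays and all ND+EV arrays. The largest C1QC difference was 0.34 ± 0.23 in HFD+EV against HFD (adjusted p = 0.925). The HFD against ND difference of 0.026 turned to -0.17 after cyclic loess and to -0.15 after quantile normalization.

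The rest of the classical pathway was read from a list of 26 complement proteases, later components and regulators, of which 13 were tested. In HFD against ND, 1 passed: CALR, a chaperone that also acts as a C1q receptor, rose by 0.99 ± 0.19 (adjusted p = 0.0474). CALR passed under 5 of 21 alternatives (adjusted p 0.0228 to 0.311), and its difference was 0.57 after cyclic loess and 0.66 after quantile normalization. C7, a component of the membrane attack complex, was 1.25 ± 0.26 higher there and did not pass (adjusted p = 0.057). C8A, another component of that complex, went the other way in HFD against ND, at -0.44 ± 0.14 (adjusted p = 0.101). In HFD+EV against HFD C8A was at 0.51 ± 0.14 (adjusted p = 0.623) and C7 at -0.48 ± 0.26 (0.905). The protease C1R, which is activated on C1q, was 0.60 ± 0.20 higher in ND+EV than in ND (adjusted p = 0.548). Counted by sign, the mean was higher in ND+EV than ND for 9 of the 13 (median 0.064) and in HFD than ND for 8 (median 0.23), but in HFD+EV than HFD for 4 (median -0.15); the median over all probe sets was between -0.022 and -0.0023 in these comparisons.

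CSF1R, the receptor for the growth factors CSF1 and IL34, varied least of the 10 genes. Its signal was 5.65, 6.18 and 6.16 in ND, 5.86, 6.11 and 6.16 in ND+EV, 6.02 and 6.32 in HFD, and 5.82, 6.03 and 6.11 in HFD+EV. All groups overlapped, and the lowest array was ND replicate 1. The group means lay between 5.99 ± 0.15 (HFD+EV) and 6.17 ± 0.21 (HFD), and differences between 2 groups ran from -0.18 ± 0.19 in HFD+EV against HFD to 0.17 ± 0.19 in HFD against ND. The EV effects under both diets differed by -0.23 ± 0.26. In ND+EV against ND the interval was -0.33 to 0.42 (95%), and in HFD+EV against HFD -0.60 to 0.24.

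TYROBP, also called DAP12, passes on signals from receptors such as TREM2. Its signal was 5.30, 6.60 and 6.59 in ND, 5.90, 7.60 and 6.55 in ND+EV, 7.03 and 7.48 in HFD, and 5.94, 6.89 and 6.60 in HFD+EV. Both HFD arrays were above every ND and every HFD+EV array, and the single highest array was ND+EV replicate 2. Means were in the order ND (6.16 ± 0.75), HFD+EV (6.47 ± 0.49), ND+EV (6.69 ± 0.86) and HFD (7.26 ± 0.32), and the first 3 differed by less than their SDs.

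For TYROBP the difference between HFD and ND was 1.09 ± 0.51 (fold 2.13, adjusted p = 0.222), and 0.66 without ND replicate 1. HFD+EV against HFD differed by -0.78 ± 0.51, 1.72-fold lower with vesicles (adjusted p = 0.915), and by -0.51 without HFD+EV replicate 1. On the normal diet the difference was 0.52 ± 0.46, and 0.064 without ND+EV replicate 2. The 2 EV effects differed by -1.30 ± 0.69 (adjusted p = 0.617).

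TYROBP and CSF1R partners were read from a list of 16 ligands, receptors and kinases, 9 of them tested. Past the threshold there were 0 in each comparison, and 5, 3, 5 and 4 of the 9 were higher in ND+EV against ND, HFD+EV against HFD, HFD against ND and HFD+EV against ND+EV. The ligand CSF1 was 0.52 ± 0.26 higher in HFD than in ND (adjusted p = 0.239) and 0.61 ± 0.23 higher in HFD+EV than in ND+EV (0.622). FCER1G, an adaptor of the same kind that serves Fc receptors, is not on that list but on the pan-macrophage list. In HFD against ND, 4 of the 8 pan-macrophage markers tested were higher and 4 lower (median 0.03). FCER1G was 1.04 ± 0.29 higher in HFD than in ND (adjusted p = 0.0811). It read 6.62, 7.63 and 7.36 in ND against 8.15 and 8.35 in HFD, with no overlap. Of all probe sets, 19.4% had HFD higher without overlap, and 39.1% had no overlap in either direction.

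**Figure D2:**
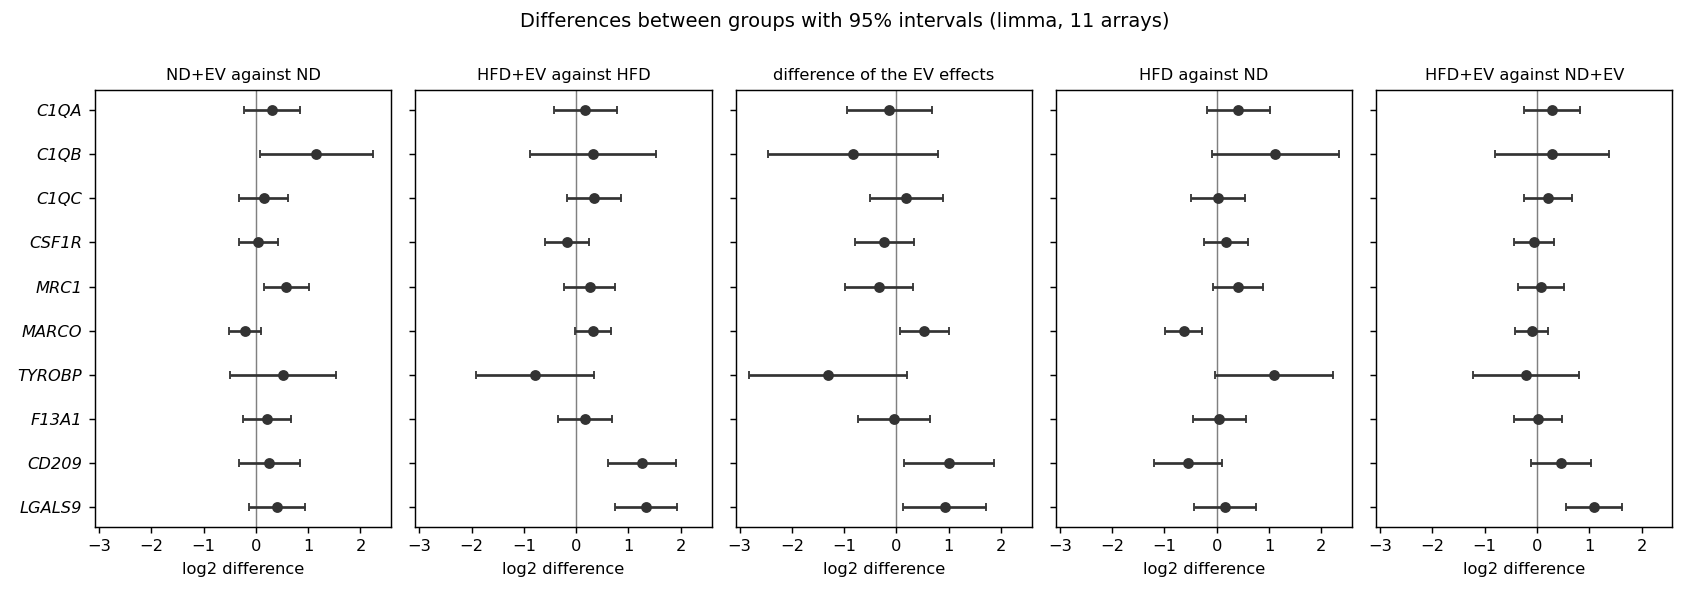
Log2 differences (horizontal axes) of the 10 genes in the 5 comparisons, with 95% intervals from limma over 11 arrays. Of 50 intervals, 9 leave out 0: C1QB and MRC1 in ND+EV against ND, CD209 and LGALS9 in HFD+EV against HFD, MARCO, CD209 and LGALS9 for the difference of the EV effects, MARCO (lower) in HFD against ND, and LGALS9 in HFD+EV against ND+EV. These intervals are not adjusted for the number of probe sets, and 0 genes passed the adjusted threshold.

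MRC1, the mannose receptor CD206, takes up glycoproteins and is a widely used mark of resident and repair-type macrophages. MRC1 signal was 4.88, 5.15 and 5.02 in ND, 5.25, 5.93 and 5.62 in ND+EV, 5.39 and 5.46 in HFD, and 5.32, 5.92 and 5.80 in HFD+EV. Every ND array lay below all 8 others. The ND mean was 5.02 ± 0.14, and HFD (5.42 ± 0.05), ND+EV (5.60 ± 0.34) and HFD+EV (5.68 ± 0.32) followed, with overlap of both EV groups and HFD.

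MRC1 in ND+EV exceeded ND by 0.59 ± 0.20 (fold 1.5, adjusted p = 0.548), with 0.42 to 0.76 as arrays were left out in turn. It was the only one of the 10 genes whose ND+EV and ND arrays did not overlap, where 6.32% of all probe sets did not with ND+EV higher, 5.31% with it lower and 11.6% in either direction. HFD exceeded ND by 0.41 ± 0.22 (adjusted p = 0.282), and HFD+EV exceeded HFD by 0.26 ± 0.22 (adjusted p = 0.946). The EV effects under both diets differed by -0.33 ± 0.29.

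MARCO, a scavenger receptor with a collagen-like stem that binds bacteria and particles, ran the other way. MARCO signal was 7.01, 6.82 and 6.57 in ND, 6.56, 6.59 and 6.62 in ND+EV, 6.15 and 6.18 in HFD, and 6.71, 6.44 and 6.32 in HFD+EV. ND replicate 1, the lowest array for 7 of the 10 genes, was the highest for MARCO, and the HFD arrays were the lowest. From low to high the means were 6.17 ± 0.02 (HFD), 6.49 ± 0.20 (HFD+EV), 6.59 ± 0.03 (ND+EV) and 6.80 ± 0.22 (ND), with overlap between each pair of neighbours except HFD and HFD+EV.

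The HFD against ND difference of MARCO was -0.63 ± 0.16, 1.55-fold lower in HFD (adjusted p = 0.0712). Leaving out arrays in turn gave -0.75 to -0.52, and without HFD+EV replicate 1, which enters only through the shared spread, the adjusted p was 0.0473. With the replicate number as a block in the fit, the MARCO difference was -0.69 (adjusted p = 0.0411). HFD and ND did not overlap for 4 of the 10 genes (C1QB, MRC1 and TYROBP higher, MARCO lower), against 39.1% of all probe sets (19.4% higher, 19.7% lower). The C1QB gap was narrow, from 8.30 in ND to 8.32 in HFD, and its other probe set overlapped. HFD+EV exceeded HFD by 0.32 ± 0.16 (adjusted p = 0.904), again without overlap. The difference of the EV effects was 0.53 ± 0.21 (adjusted p = 0.574).

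CD209, or DC-SIGN, is a C-type lectin of macrophages and dendritic cells that binds mannose-rich glycans. CD209 signal was 6.0, 5.88 and 5.44 in ND, 5.90, 5.90 and 6.31 in ND+EV, 5.56 and 4.91 in HFD, and 6.01, 6.96 and 6.51 in HFD+EV. All 3 HFD+EV arrays were above both HFD arrays, while HFD overlapped ND. HFD (5.23 ± 0.46), ND (5.78 ± 0.29), ND+EV (6.04 ± 0.23) and HFD+EV (6.49 ± 0.48) was the order of the means, with overlap between each pair of neighbours.

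HFD+EV exceeded HFD by 1.26 ± 0.29 for CD209 (fold 2.40, adjusted p = 0.564), and by 0.94 to 1.59 as arrays were left out. On the normal diet the EV difference was 0.26 ± 0.26 (adjusted p = 0.798), and the 2 effects differed by 1.0 ± 0.39 (adjusted p = 0.572). HFD against ND gave -0.55 ± 0.29 (adjusted p = 0.279), or -0.22 without HFD replicate 2. Of the 10 genes, 4 did not overlap between HFD+EV and HFD (LGALS9, CD209 and MARCO higher, TYROBP lower), where 23.2% of all probe sets did not (12.2% higher, 11% lower).

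Other scavenger and lectin receptors, 8 tested of a list of 20, gave 0 past the threshold in every comparison. OLR1, the receptor for oxidised LDL, was 1.16 ± 0.30 higher in HFD than in ND (adjusted p = 0.0733), opposite in sign to MARCO, and -0.78 ± 0.30 in HFD+EV against HFD (0.888). CD36, which takes up fatty acids and oxidised lipids, was 0.94 ± 0.43 higher in HFD than in ND (adjusted p = 0.212). Of these 8 genes, 3 were higher in HFD than in ND (median -0.13) and 5 in HFD+EV than in HFD (median 0.045, or -0.0016 after quantile normalization). CLEC4G, the lectin gene next to CD209 in the pig genome, differed by -0.072 ± 0.13 in HFD+EV against ND+EV.

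F13A1 encodes the catalytic chain of coagulation factor XIII, a transglutaminase that crosslinks fibrin and is made by macrophages and platelets. F13A1 signal was 5.64, 6.06 and 6.06 in ND, 6.06, 5.97 and 6.36 in ND+EV, 6.06 and 5.89 in HFD, and 5.68, 6.29 and 6.47 in HFD+EV. All groups overlapped, and the low arrays were ND replicate 1 and HFD+EV replicate 1. Differences between 2 groups lay between 0.013 ± 0.21 in HFD+EV against ND+EV and 0.21 ± 0.21 in ND+EV against ND, and the EV effects differed by -0.04 ± 0.31. Under cyclic loess and quantile normalization its differences were -0.087 and -0.074 in HFD against ND, and -0.052 and -0.075 between HFD+EV and ND+EV, where the deposited values gave 0.053 and 0.013.

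Of 16 coagulation genes listed, 8 were tested and 0 passed. In ND+EV against ND 2 of the 8 were higher (median -0.095), in HFD against ND 1 of the 8 (median -0.19), and in HFD+EV against HFD 6 (median 0.12). The 1 gene higher in HFD than in ND was the tissue transglutaminase TGM2, an enzyme of the same family as F13A1, at 0.50 ± 0.27 (adjusted p = 0.279). F9 and SERPINC1 had smaller p in that comparison and were lower, at -0.35 ± 0.13 and -0.49 ± 0.21 (adjusted p = 0.139 and 0.180).

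LGALS9 encodes galectin-9, a lectin that binds beta-galactosides and the receptor HAVCR2 (TIM-3), and is made by macrophages, endothelium and other cells. LGALS9 signal was 5.88, 6.39 and 5.76 in ND, 6.31, 6.65 and 6.29 in ND+EV, 6.31 and 6.04 in HFD, and 6.97, 7.74 and 7.81 in HFD+EV. The 3 HFD+EV arrays were above all 8 others, and the other groups overlapped each other. Means were 6.01 ± 0.34 in ND, 6.17 ± 0.19 in HFD, 6.42 ± 0.20 in ND+EV and 7.51 ± 0.47 in HFD+EV.

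LGALS9 had the largest EV difference of the 10 genes on the high fat diet, 1.33 ± 0.27 (fold 2.52, adjusted p = 0.529), and 1.18 to 1.60 as arrays were left out. By p it was number 17 among 20668 probe sets in that comparison, and CD209 was number 45. HFD+EV exceeded ND+EV by 1.09 ± 0.24 (fold 2.13, adjusted p = 0.425). It was the only one of the 10 genes without overlap between these groups, against 14.5% of all probe sets (7.58% higher, 6.93% lower). On the normal diet the EV difference was 0.41 ± 0.24 (adjusted p = 0.644), and the EV effects differed by 0.93 ± 0.36 (adjusted p = 0.572).

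Diet alone gave an LGALS9 difference of 0.16 ± 0.27, which became -0.055 after cyclic loess normalization. Of 10 partners and other galectins listed, 6 were tested and 0 passed. In HFD+EV against HFD 2 of them were higher (median -0.073; 3 after quantile normalization): LGALS3 differed by 0.18 ± 0.13, LGALS1 by -0.33 ± 0.19 and the hyaluronan receptor CD44, which galectin-9 can bind, by -0.49 ± 0.20 (adjusted p = 0.895). PDIA3, a protein disulfide isomerase, was 1.03 ± 0.27 higher in HFD than in ND (adjusted p = 0.0775).

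The genes whose signal followed LGALS9 most closely over the 11 arrays were IFIH1, a sensor of viral RNA (Pearson r = 0.964), the antiviral GTPase MX1 (0.928), FAM155B (0.920), the glucocorticoid receptor NR3C1 (0.904) and STAT2, a transcription factor of the interferon pathway (0.900). The arrays share 4 groups, so these values describe likeness and carry no test. MX1 is given here by the probe set most like LGALS9 (4.73 to 6.95). The interferon-stimulated list below uses another MX1 probe set, which ran from 5.28 to 6.03 over the arrays. IFIH1 read 4.50, 4.93 and 4.33 in ND, 4.67, 4.93 and 4.87 in ND+EV, 4.93 and 4.75 in HFD, and 5.49, 5.63 and 5.84 in HFD+EV. As for LGALS9, its 3 HFD+EV arrays were above the other 8.

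Of 30 interferon-stimulated genes listed, 19 were tested. LGALS9 is not one of them, but IFIH1, STAT2 and MX1 (by its other probe set) are. The list was chosen with earlier results of these data known, so its counts are descriptive. All 19 were higher in HFD+EV than in HFD (median 0.62; 49.6% of all probe sets were higher), and all 19 than in ND+EV (median 0.56; 48.8%), with 0 past the threshold; both counts were also 19 after cyclic loess and quantile normalization. In ND+EV against ND 12 of the 19 were higher (median 0.046). Their mean deviation from each gene's own mean reached 0.53, 0.54 and 0.43 on HFD+EV replicates 1 to 3 and at most -0.091 on any other array. Whether these genes bear on the LGALS9 signal was not tested.

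**Figure D3:**
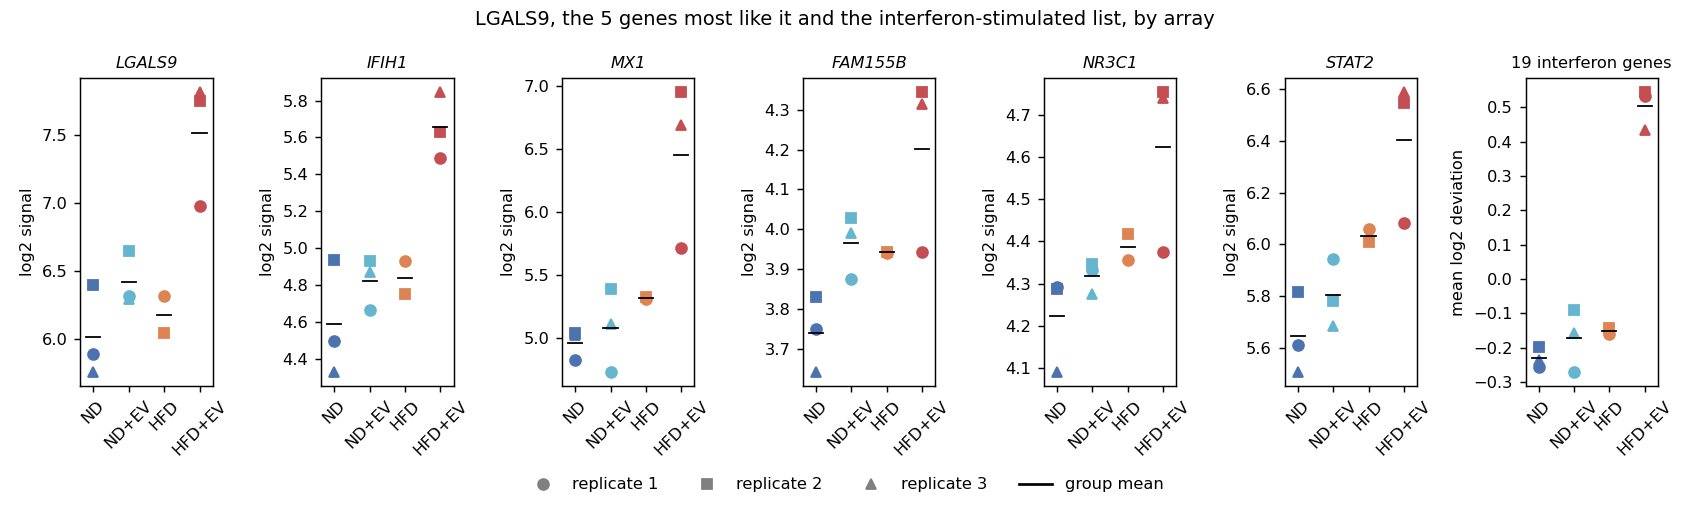
Log2 signal (vertical axes, not from 0) of LGALS9 and the 5 genes most like it on each array by group, and, at the right, the mean log2 deviation of 19 interferon-stimulated genes; marker shapes show the replicate and bars the group mean. The HFD+EV arrays of LGALS9 (6.97 to 7.81) and IFIH1 (5.49 to 5.84) lie above all others, while HFD+EV replicate 1 lies lowest of its group in each of the 6 gene panels.

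The genes most like the mean of the 3 C1q genes were of other kinds: PBXIP1 (Pearson r = 0.931), the choline transporter SLC44A1 (0.907), COX6A1, a subunit of cytochrome c oxidase (0.902), the adiponectin receptor ADIPOR2 (0.901) and the cytoskeletal protein ANLN (0.900). None of the 5 is a listed macrophage marker. For each of them ND had the lowest group mean: COX6A1 was at 7.30 in ND, 7.75 in ND+EV, 7.76 in HFD and 7.81 in HFD+EV. The 5 were picked by likeness to C1q over these same arrays, so their shared low ND mean carries no test. ANLN, at 3.88 in ND, lay near 3.63, the mean signal below which probe sets were left out.

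Set side by side, the 10 genes did not share one pattern. The lowest array was ND replicate 1 for 7 of them (the 3 C1q genes, CSF1R, MRC1, TYROBP and F13A1), where their mean deviation over all 10 was -0.60, and it was ND replicate 3 for LGALS9, HFD replicate 1 for MARCO and HFD replicate 2 for CD209. The highest array was HFD+EV replicate 3 for C1QA, C1QB, F13A1 and LGALS9 and HFD+EV replicate 2 for C1QC and CD209. HFD+EV replicates 2 and 3 had mean deviations of 0.47 and 0.44, but HFD+EV replicate 1 had -0.11, close to the HFD arrays (-0.058 and -0.056). Within the HFD+EV group, replicate 1 was lowest for 9 of the 10 genes, LGALS9 and CD209 included, and highest for MARCO.

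**Figure D4:**
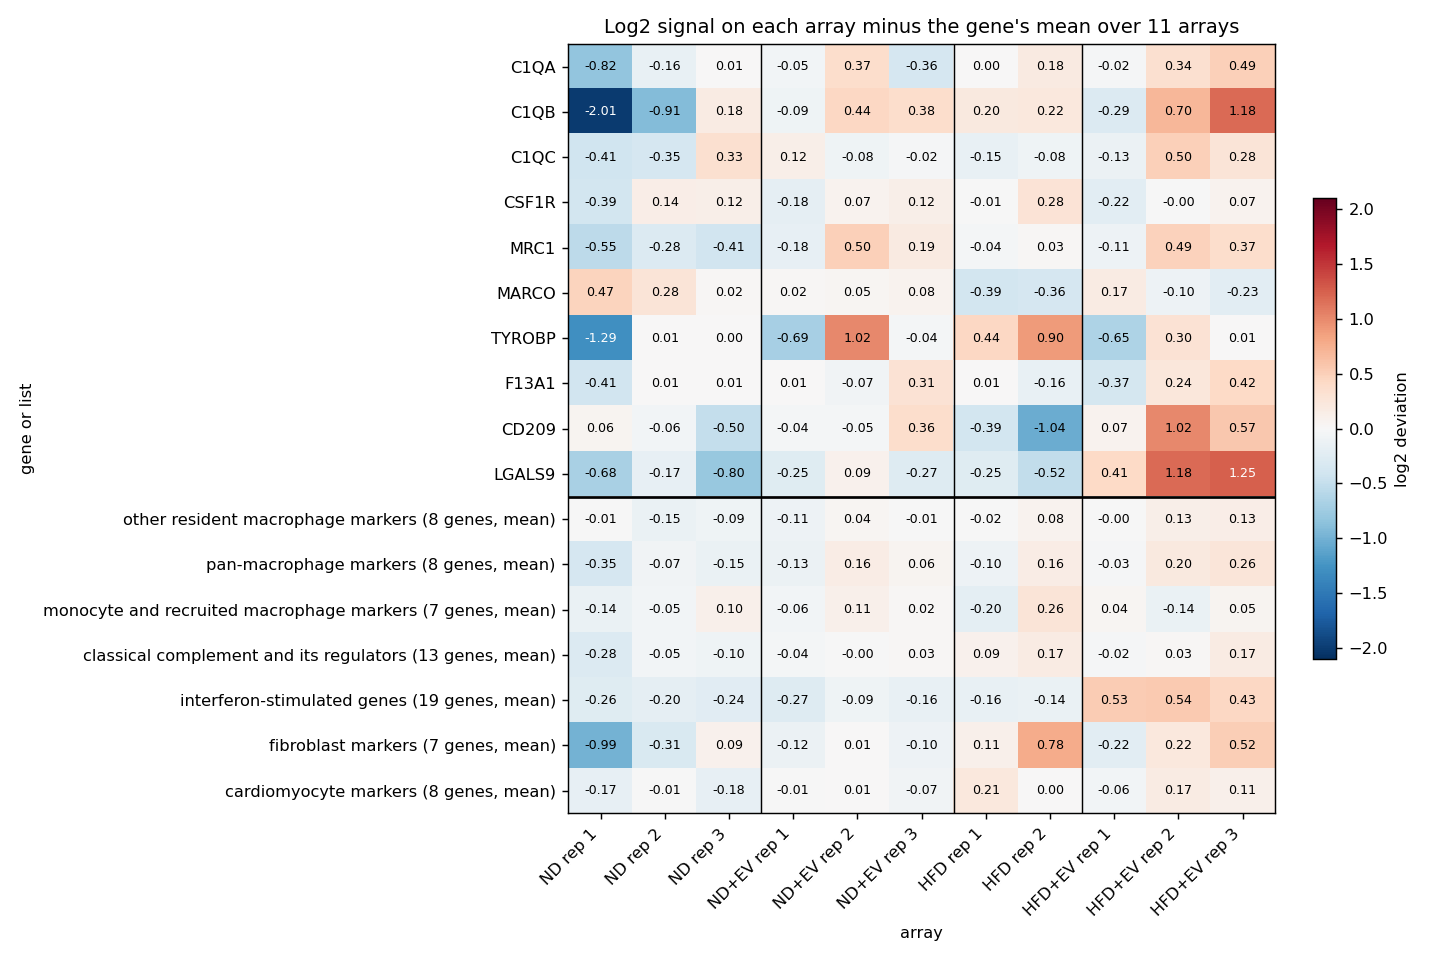
Log2 signal on each array (columns, by group) minus the gene's mean over 11 arrays, for the 10 genes (upper rows) and as means over marker lists (lower rows); the colour scale and the printed numbers give the deviation. ND replicate 1 is low for 8 of the 10 genes and for fibroblast markers (-0.99), and interferon-stimulated genes are at 0.43 to 0.54 on the HFD+EV arrays.

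Counted by sign, 9 of the 10 genes had a higher mean in ND+EV than in ND (median 0.29; 49.2% of all probe sets were higher), 8 in HFD+EV than in HFD (median 0.29; 49.6%), 8 in HFD than in ND (median 0.17; 47.5%) and 7 in HFD+EV than in ND+EV (median 0.14; 48.8%). Without ND replicate 1, the lowest array for 7 of these genes, the mean of ND+EV exceeded that of ND for 8 of the 10 (median 0.08) and HFD exceeded ND for 6 (median 0.051). After cyclic loess 5 of the 10, and after quantile normalization 6, were higher in HFD than in ND, with medians of -0.0094 and 0.023. C1QB was then at 0.74 and 0.84, C1QA at 0.20 and 0.22, CSF1R at 0.036 and 0.031, and MARCO at -0.85 and -0.84 in that comparison. The EV effect was larger under HFD for 4 of the 10 (median difference -0.086; 0.016 after cyclic loess and 0.11 with 6 of the 10 without ND replicate 1; 50.2% of all probe sets). Comparisons that share the ND, HFD or EV arrays are not independent of each other, and the 3 C1q genes come from one cluster.

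Of 18 pan-macrophage markers 8 were tested, and ND+EV was higher than ND for 6 (median 0.20), 6 in HFD+EV than in HFD (0.075), 4 in HFD than in ND (0.03) and 5 in HFD+EV than in ND+EV (0.019), with 0 past the threshold. Their summed linear signal was 362 to 509 in ND, 473 to 639 in ND+EV, 572 to 698 in HFD and 565 to 751 in HFD+EV. That sum leans on its brightest probe set, FCER1G (log2 signal 6.62 to 8.47 over the arrays), and does not weigh the 8 genes equally. With equal weight, the mean deviation from each gene's own mean overlapped between ND (-0.35 to -0.071) and HFD (-0.10 to 0.16). AIF1, an actin-binding protein of macrophages, was 0.50 ± 0.21 higher in ND+EV than in ND and 0.53 ± 0.24 higher in HFD+EV than in HFD (adjusted p = 0.574 and 0.896). SPI1, another of the 8, went the other way in HFD+EV against HFD, at -0.38 ± 0.21 (adjusted p = 0.907).

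Among the 8 further resident markers tested, ND+EV exceeded ND for 6 (median 0.061), 6 in HFD+EV than in HFD (0.061) and 4 in HFD than in ND (0.0031). IGF1, a growth factor made by resident macrophages and by fibroblasts, was 0.95 ± 0.19 higher in HFD than in ND (adjusted p = 0.0536). MS4A7, a membrane protein of macrophages, was -0.59 ± 0.16 in HFD against ND (adjusted p = 0.0792) and 0.49 ± 0.16 in HFD+EV against HFD (0.774). It read 4.18, 4.48 and 4.01 in ND, 3.57 and 3.71 in HFD, and 4.13, 4.16 and 4.09 in HFD+EV, so its HFD arrays were the lowest, as for MARCO. Unlike those of MARCO, the HFD values of MS4A7 lay near 3.63, the mean signal below which probe sets were left out. In HFD+EV against HFD the next genes of this list by p went the other way, IGF1 at -0.37 ± 0.19 and FOLR2 at -0.41 ± 0.22 (adjusted p = 0.905 for each).

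Markers of monocytes and recruited macrophages (7 tested of 19) had 4 higher in ND+EV than in ND (median 0.071), 4 in HFD than in ND (0.058) and 3 in HFD+EV than in HFD (-0.036). Their linear signals summed to 303 to 538 in ND, 495 to 626 in ND+EV, 451 to 511 in HFD and 485 to 508 in HFD+EV. This sum leans on FABP5, the brightest of the 7 (log2 signal 7.37 to 8.98 over the arrays). Dendritic cell markers, which matter for CD209, could be tested for 3 of 10 genes, and 1 of the 3 was higher in HFD+EV than in HFD (median -0.034). All 7 fibroblast markers tested were higher in HFD than in ND (median 0.73; 0.33 after cyclic loess, 0.50 without ND replicate 1), and 1 of the 7 in HFD+EV than in HFD (-0.20). In ND+EV against ND all 7 were higher (0.24), but 4 after cyclic loess (0.029), 5 after quantile normalization (0.076) and 4 without ND replicate 1 (0.0083). The list had ND replicate 1 at a mean deviation of -0.99 and HFD replicate 2 at 0.78. Markers of T cells (9 tested of 10), B cells (3 of 7), NK cells (6 of 8), neutrophils (1 of 9), mast cells (4 of 7), endothelium (5 of 9), smooth muscle and pericytes (6 of 7) and cardiomyocytes (8 of 12) were also read. In HFD against ND, 5 of 5 endothelial (median 0.22), 5 of 6 smooth muscle and pericyte (0.26) and 5 of 8 cardiomyocyte markers (0.27) were higher. So were 3 of 9 T cell, 1 of 3 B cell, 1 of 6 NK cell, 1 of 1 neutrophil and 3 of 4 mast cell markers. Endothelial markers were higher in HFD+EV than in ND+EV for 5 of 5 (0.22), and than in HFD for 2 of 5 (-0.045). None of the cell type lists had a gene past the threshold in any of the 5 comparisons. The part of these cell types in the values of the 10 genes was not tested.

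**Figure D5:**
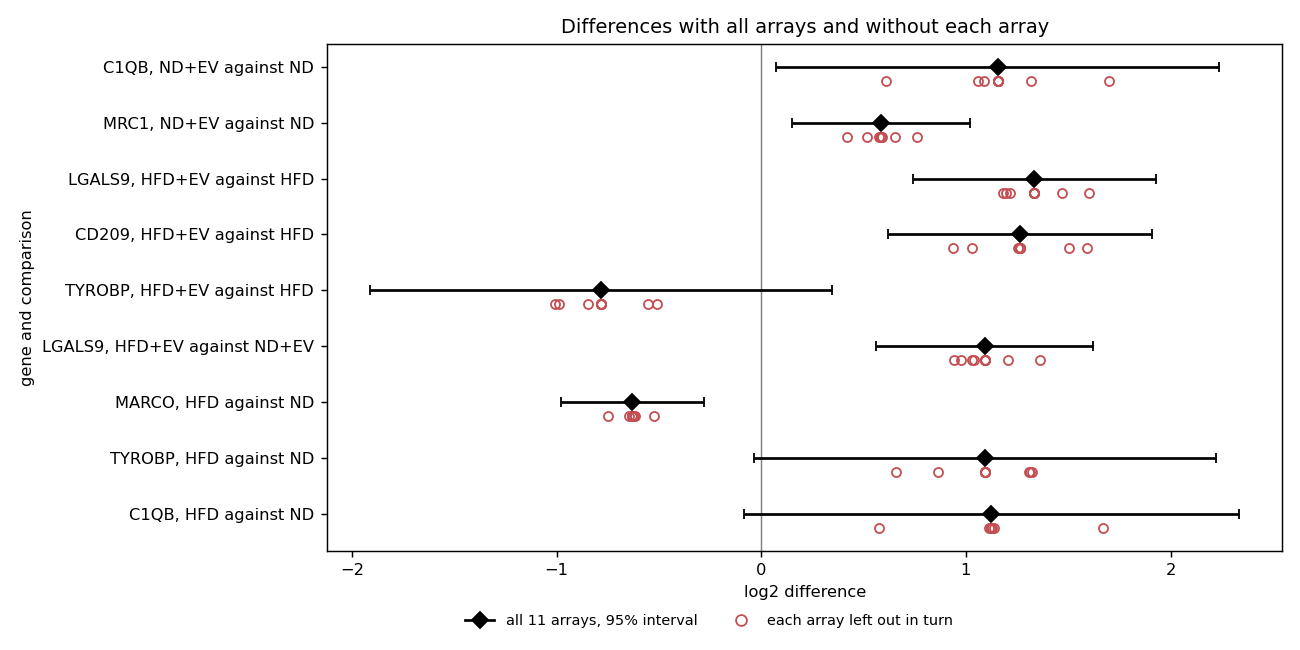
Log2 differences (horizontal axis) of 9 gene and comparison pairs with all 11 arrays (diamonds, 95% interval) and with each array left out in turn (open circles). For C1QB in ND+EV against ND the circles run from 0.61 to 1.70, and for LGALS9 in HFD+EV against HFD from 1.18 to 1.60.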

How the data were processed

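The array protocol started from 50 ng of total RNA, labelled for an Affymetrix whole-transcript array, per the labels. Transcriptome Analysis Console is the tool in the submitters' processing notes, without a version. The deposited values are log2 signals that the authors had already normalized, 1 per probe set. The log base was read from the range (2.14 to 14.02) and the tool. Not given in the sources used here are the normalization method, the build and the version of the array annotation.

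The probe sets in the lowest 25% of mean signal (below 3.63) were left out. Group means over all 11 arrays were fitted by lmFit and eBayes of limma 3.58.1 (R 4.3.3; 7 residual and 3.62 prior degrees of freedom), two-sided, with Benjamini-Hochberg adjustment over 20668 probe sets. The functions were tested on simulated data. For C1QB the brighter of its probe sets was the main one. Probe sets with 1 symbol numbered 13157, with several 523 and with none 13878, and 12841 of the first were found by gene ID in a current gene table, as were all 10 genes here. The small number of arrays limits precision.

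The 10 genes, the 19 gene lists and the tests were chosen with earlier results of these data known. The rule for named genes took all 10 genes, up to 3 genes of a list with the smallest p in a comparison, and the 5 genes most like C1q and LGALS9. ACTC1, MYH7, STAB1, FOLR2, VSIG4 and a few list members outside that rule are named as levels or by their role, after their values were seen. Titles give the groups the same replicate numbers. Deviations from the group mean correlated at -0.10 to 0.33 between same-numbered arrays (15 pairs, 5 above 0.1). Between arrays of unlike number the range was -0.34 to 0.19 (30 pairs, 5 above 0.1). What the numbers stand for is not in the labels, and no block was used in the main fit. Alternatives were other filters, normalizations, variance settings, array weights, the replicate block, only the groups compared, the mean of a gene's probe sets, and leaving out arrays.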

Additional observations from a re-analysis of the deposited data

How the results depend on the processing

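The 10 genes were refitted under 21 alternatives, 11 of which left out 1 array. Of 1040 differences, 992 kept their sign and their side of the threshold, 46 changed sign, 2 passed the threshold and 0 lost it. With the replicate block 1 gene passed in HFD against ND (MARCO, -0.69, adjusted p = 0.0411), and leaving out an array gave 0 to 1 (MARCO, without HFD+EV replicate 1). The block changed no other call among these genes, and all probe sets past the threshold numbered 938 with it in HFD against ND; over all alternatives that count was 0 to 1356 and 0 under 13 of 21. The labels do not say whether the numbers pair the arrays, and this was not settled here. The count was 0 to 2 in ND+EV against ND, 0 to 1 both in HFD+EV against HFD and for the difference between EV effects, and 0 to 10 in HFD+EV against ND+EV.

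The differences that changed sign included C1QB in HFD+EV against HFD (0.32 with all arrays) and in HFD+EV against ND+EV (0.29); the cause was not tested. After cyclic loess, F13A1 was at 0.035 for the difference of the EV effects, -0.087 in HFD against ND and -0.052 in HFD+EV against ND+EV, C1QC at -0.17 and LGALS9 at -0.055 in HFD against ND. After quantile normalization, C1QC was at -0.15 and F13A1 at -0.074 in HFD against ND, and F13A1 at -0.075 in HFD+EV against ND+EV. Array weights gave CSF1R -0.011 in ND+EV against ND, F13A1 0.12 for the difference of the EV effects. With these weights CSF1R was at 0.0060 and TYROBP at 0.055 in HFD+EV against ND+EV. Without ND replicates 1 and 3, CSF1R was at -0.13 in ND+EV against ND, C1QA at 0.028, C1QC at -0.018 and F13A1 at 0.10 for the difference of the EV effects, while CSF1R was at -0.0058, F13A1 at -0.088 and LGALS9 at -0.22 in HFD against ND.

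Leaving out 1 array moved CSF1R from -0.13 to 0.14 in ND+EV against ND, and C1QB from -0.0061 to 0.73 in HFD+EV against HFD. For the difference of the EV effects, C1QA ran from -0.30 to 0.12, C1QC from -0.052 to 0.36 and F13A1 from -0.20 to 0.19. In HFD against ND, C1QC ran from -0.11 to 0.26 and F13A1 from -0.088 to 0.14. In HFD+EV against ND+EV, C1QB ran from -0.037 to 0.70, CSF1R from -0.15 to 0.029, MRC1 from -0.10 to 0.26, TYROBP from -0.60 to 0.25 and F13A1 from -0.15 to 0.24.

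LGALS9 and CD209 in HFD+EV against HFD kept their sign under all 21 alternatives, with adjusted p from 0.0849 to 1 and from 0.138 to 1. The 2 HFD arrays and the unknown detection limit of each probe set bound what these data can show.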
